A study of Rattus norvegicus with 16 samples.

Results

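Genes of the circadian clock and its direct output were followed in rat liver after treatment with 3 dithiolethiones. The members were Bmal1, Per1, Per2, Nr1d1, Nr1d2, Dbp and Tef, chosen by name, and every probe set whose platform gene symbol was one of these was taken. Of these 7 genes, 6 were represented, by 9 of the 8740 probe sets on the array, out of 4736 genes in all. Per1 has no value here. Of the 9 probe sets 8 passed the filter on low values, and the one that did not was Bmal1 AB012600_s_at.

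Liver RNA came from 16 male Fischer F344 rats, 6 weeks old on arrival, kept under 14 h of light and 10 h of dark and randomly assigned to 4 groups of 4. The rats received by gavage 0.3 mmol/kg of D3T (3H-1,2-dithiole-3-thione, the parent ring), of OLT (oltipraz, which carries a methyl and a pyrazinyl group on that ring) or of TBD (which carries a tert-butyl group), or saturated sucrose as vehicle. Dosing was on alternate days for 5 days, and the liver was frozen 24 h after dose 3. Titles call the controls untreated whereas the protocol describes sucrose, and vehicle is the name used here. The hour of killing and the order in which the groups were killed are not given in the sources used here. All values below are deposited log2 expression values from GCRMA, which corrects the background by probe sequence and compresses dim values, and each array is 1 rat.

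The mammalian clock is a feedback loop of transcription. BMAL1 with its partner CLOCK binds E-boxes and switches on the Per genes, Nr1d1, Nr1d2 and Dbp. PER proteins with CRY proteins then shut BMAL1 and CLOCK off, while the nuclear receptors REV-ERB alpha and beta, made from Nr1d1 and Nr1d2, repress Bmal1. DBP and TEF are PAR bZIP factors (basic leucine zipper proteins rich in proline and acidic residues) that bind D-boxes and carry the rhythm to genes of liver metabolism. In rodent liver the transcripts of several of these genes swing widely over the day.

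The promoters of the genes that fell in at least 1 comparison are shown because these are the members the results turn on. Each runs 5′ to 3′ on the gene's strand, from 250 bases before the start to 50 after it, as given by RefSeq on assembly GRCr8, where all 7 members were matched, with 8 promoters. Capitals mark the motifs found. In Per2 these are the D-box TTATGTAA and the E-prime box CACGTT, and in Nr1d2 the nuclear receptor motif AGGTCA. Dbp has no capitals because no searched motif was found in its window.
Per2 promoter, chr9:99496944-99497243, minus strand: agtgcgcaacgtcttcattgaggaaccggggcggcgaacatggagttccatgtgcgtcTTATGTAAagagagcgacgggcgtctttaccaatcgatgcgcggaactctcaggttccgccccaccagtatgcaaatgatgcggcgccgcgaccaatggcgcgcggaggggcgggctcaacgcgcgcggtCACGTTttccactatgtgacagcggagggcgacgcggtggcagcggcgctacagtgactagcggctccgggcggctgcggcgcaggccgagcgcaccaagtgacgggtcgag
Nr1d2 promoter, chr15:9954784-9955083, plus strand: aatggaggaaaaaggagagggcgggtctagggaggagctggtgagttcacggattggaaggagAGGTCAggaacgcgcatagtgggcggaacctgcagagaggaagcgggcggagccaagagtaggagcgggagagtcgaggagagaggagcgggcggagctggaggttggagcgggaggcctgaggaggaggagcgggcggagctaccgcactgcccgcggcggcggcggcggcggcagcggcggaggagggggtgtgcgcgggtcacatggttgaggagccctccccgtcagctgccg
Dbp promoter, chr1:105312006-105312305, plus strand: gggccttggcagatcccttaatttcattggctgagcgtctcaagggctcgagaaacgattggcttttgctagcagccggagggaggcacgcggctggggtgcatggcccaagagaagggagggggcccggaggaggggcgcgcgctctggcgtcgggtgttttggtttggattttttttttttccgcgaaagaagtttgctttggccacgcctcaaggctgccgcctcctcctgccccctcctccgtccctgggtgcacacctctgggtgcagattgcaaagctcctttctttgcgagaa

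The letters searched on both strands were CACGTG (E-box), CACGTT (E-prime box), TTATGTAA and TTACGTAA (D-boxes) and AGGTCA. Over 33469 RefSeq promoters of 300 bases, CACGTG was found in 6.42%, CACGTT in 4.83%, TTATGTAA in 0.893%, TTACGTAA in 0.12% and AGGTCA in 16.2%. Counted from the gene's start, the Per2 D-box begins at base -192 and its E-prime box at base -62. The Nr1d2 motif begins at base -187. Tef holds CACGTG, Bmal1 holds AGGTCA, and the 2 Nr1d1 promoters hold CACGTG and, on the opposite strand, CACGTT. Neither of the promoters of genes that fell with all 3 compounds, Per2 and Nr1d2, shares a searched motif with the other. A match describes the letters and no binding was measured.

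**Figure D1:**
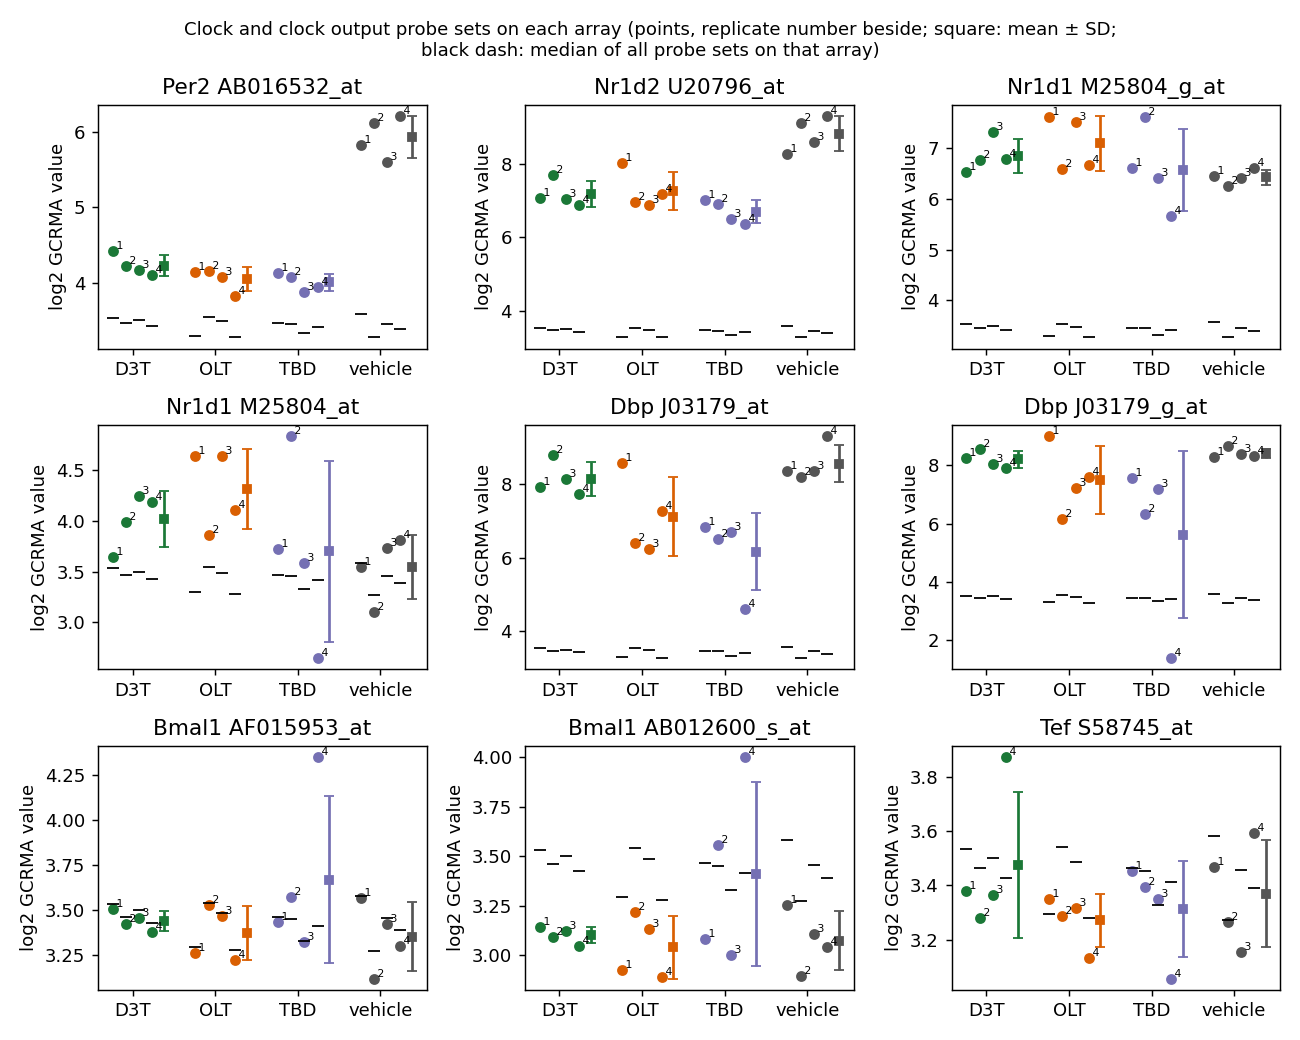
Log2 expression value (vertical axis) of each member probe set on each of the 16 arrays, with D3T, OLT, TBD and vehicle from left to right; points are arrays with their replicate number, squares are group means ± SD, and black dashes are each array's median over all probe sets. Per2 lies at 3.82 to 4.42 on all 12 compound arrays and at 5.59 to 6.20 on the 4 vehicle arrays.

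Against vehicle, Per2 and Nr1d2 were lower with each of the 3 compounds and Dbp was lower with TBD, and no member was higher in the main fit. Of the 8 member probe sets tested, 2 were lower with D3T, 2 with OLT and 3 with TBD (limma, threshold 0.05 after Benjamini-Hochberg adjustment for 5323 probe sets). Of all probe sets tested, 12.2% were lower and 6.18% higher with D3T, 7.89% lower and 3.38% higher with OLT, and 9.47% lower and 3.55% higher with TBD. The median member difference was -0.06 with D3T, -0.50 with OLT and -0.99 with TBD, where the medians over all tested probe sets were 0.04, -0.03 and -0.02. No probe set lay near the last 2 member medians. With OLT the median fell between Dbp J03179_g_at (-0.91) and Tef (-0.10), and with TBD between Per2 (-1.93) and Tef (-0.05). These medians therefore do not describe a shift of all members. All 3 comparisons use the same 4 vehicle arrays, so they are not independent of each other. The hour and order of killing are not known here. Their part in these differences cannot be told apart from that of the compounds. In whole liver, fewer cells of a type and less RNA per cell cannot be told apart.

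Per2 encodes a PERIOD protein of the repressing arm of the loop. Its probe set AB016532_at read 4.42, 4.22, 4.17 and 4.10 on the D3T arrays, 4.14, 4.16, 4.07 and 3.82 on the OLT arrays and 4.12, 4.07, 3.88 and 3.94 on the TBD arrays, against 5.83, 6.11, 5.59 and 6.20 on the vehicle arrays. Every compound array lay below every vehicle array, with a wide gap between them. The compound values were in a narrow band near the 62nd to 67th percentile of their arrays, where GCRMA compresses differences, and the vehicle values near the 76th to 77th.

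Per2 averaged 4.23 ± 0.14 with D3T, 4.05 ± 0.15 with OLT and 4.00 ± 0.11 with TBD, against 5.93 ± 0.28 in vehicle (SD, n = 4 each). It fell by 1.71 ± 0.13 on the log2 scale with D3T (SE, limma adjusted p = 1.35e-06), a 3.27-fold lower level. With OLT the difference was -1.89 ± 0.13 (adjusted p = 7.58e-07, 3.70-fold lower) and with TBD -1.93 ± 0.13 (adjusted p = 8.24e-07, 3.81-fold lower). Among all the alternatives run, the smallest Per2 difference was -1.37 with D3T, -1.55 with OLT and -1.58 with TBD, and the call held in each. The 3 compounds were ordered D3T, OLT, TBD from high to low, and no neighbours in that order differed beyond their spread.

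Nr1d2 encodes REV-ERB beta, a heme-binding nuclear receptor that represses Bmal1. Probe set U20796_at read 7.07, 7.69, 7.05 and 6.87 with D3T, 8.01, 6.95, 6.88 and 7.16 with OLT, and 7.03, 6.90, 6.49 and 6.37 with TBD, against 8.27, 9.10, 8.60 and 9.30 in vehicle. Again no compound array reached any vehicle array, and OLT replicate 1 came nearest. Nr1d2 differed by -1.65 ± 0.28 with D3T (adjusted p = 0.001, 3.13-fold lower), by -1.57 ± 0.28 with OLT (adjusted p = 0.00238, 2.96-fold lower) and by -2.12 ± 0.28 with TBD (adjusted p = 0.000252, 4.36-fold lower). These calls held in every alternative, with differences no smaller than -1.41, -1.39 and -1.80.

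Nr1d1, which encodes REV-ERB alpha, had higher group means with each compound but passed no test. Probe set M25804_g_at read 6.54, 6.76, 7.32 and 6.78 with D3T, 7.60, 6.59, 7.52 and 6.66 with OLT, and 6.61, 7.61, 6.40 and 5.66 with TBD, against 6.46, 6.25, 6.41 and 6.61 in vehicle. The vehicle arrays lay close together, and each compound group had at least 1 array among them. The differences were 0.42 (95% interval -0.30 to 1.14) with D3T, 0.66 (-0.06 to 1.39) with OLT and 0.14 (-0.58 to 0.86) with TBD, with adjusted p of 0.443, 0.265 and 1.

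The other Nr1d1 probe set, M25804_at, comes from the same sequence record, so the pair is not independent. It differed by 0.47 with D3T, 0.77 with OLT (95% interval 0.02 to 1.51, adjusted p = 0.197) and 0.15 with TBD. With OLT all 4 arrays lay above all 4 vehicle arrays, which 4.88% of all tested probe sets did. The vehicle values of 3.10 to 3.81 lay at the 45th to 60th percentile of their arrays, so this probe set was near background there and the sizes of its differences are uncertain. Without TBD replicate 2 the TBD differences turned to -0.21 and -0.23. Nr1d1 overlaps Thra, a thyroid hormone receptor gene, on the opposite strand in the reference, and whether these probe sets read Thra was not tested.

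**Figure D2:**
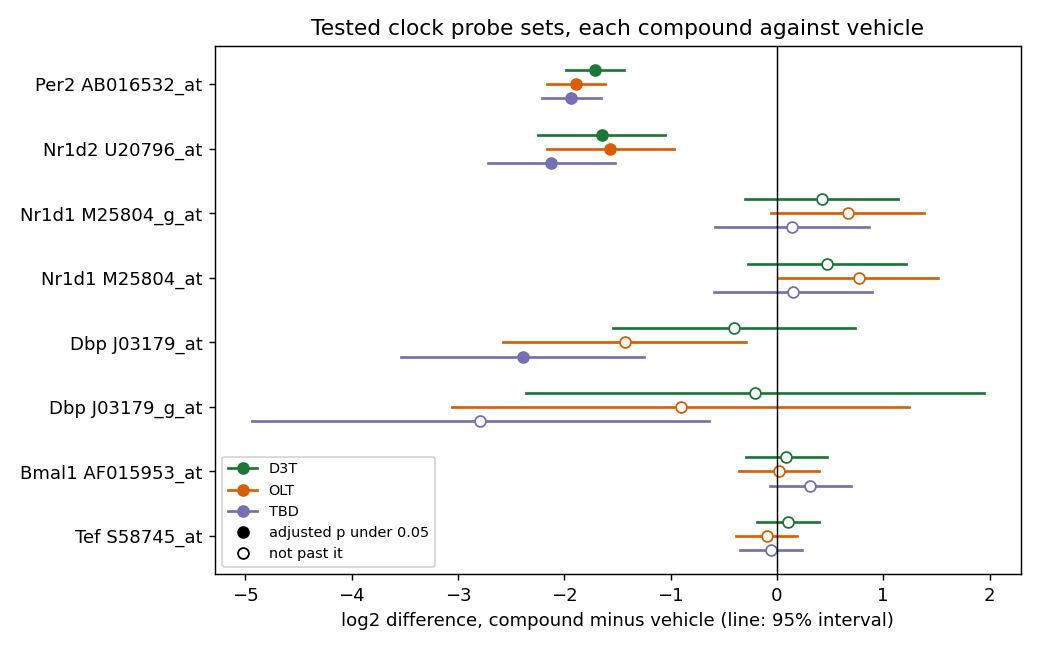
Log2 difference from vehicle (horizontal axis) of each tested member probe set with D3T, OLT and TBD, with lines for the 95% intervals of the limma fit and filled points for adjusted p under 0.05. Per2 and Nr1d2 lie below 0 with every compound, and Dbp J03179_at differs by -0.41 with D3T, -1.43 with OLT and -2.39 with TBD.

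Dbp, the D-box binding output factor, was the member whose values varied most between compounds and between arrays. Probe set J03179_at read 7.91, 8.80, 8.13 and 7.73 with D3T, 8.56, 6.41, 6.23 and 7.26 with OLT, and 6.84, 6.49, 6.70 and 4.60 with TBD, against 8.36, 8.18, 8.36 and 9.30 in vehicle. All TBD arrays lay below all vehicle arrays. Of the D3T arrays 3 lay just below the lowest vehicle array and 1 within their range, and OLT replicate 1 stood with vehicle while the other OLT arrays stood below. TBD replicate 4 was the lowest of all 16.

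Dbp fell by 2.39 ± 0.53 on the log2 scale with TBD (adjusted p = 0.00837), a 5.25-fold lower level, and without TBD replicate 4 the difference was -1.87. With D3T it differed by -0.41 (95% interval -1.54 to 0.73, adjusted p = 0.657). With OLT it differed by -1.43 (-2.57 to -0.29) and did not pass (adjusted p = 0.104). Without OLT replicate 1 the OLT difference was -1.92 and passed (adjusted p = 0.0239), and with array weights it was -1.71 (adjusted p = 0.00407).

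Probe set J03179_g_at, from the same sequence record, read 8.27, 8.57, 8.06 and 7.91 with D3T, 9.00, 6.17, 7.23 and 7.62 with OLT, and 7.56, 6.34, 7.19 and 1.39 with TBD, against 8.27, 8.65, 8.40 and 8.31 in vehicle. Here too all TBD arrays lay below all vehicle arrays, and the value on TBD replicate 4 was near the bottom of its array. The TBD difference was -2.79 ± 1.01 and missed the threshold (adjusted p = 0.0871), and without TBD replicate 4 it was -1.38. Over the mean of both probe sets Dbp passed with TBD at -2.59 (adjusted p = 0.0311). In all, 4 member probe sets lay lower without overlap with TBD, against 10.3% of all tested, and 2 each with D3T and OLT, against 15.8% and 9.79%.

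Tef, a PAR bZIP factor like Dbp, was dim, at 3.06 to 3.87 on the 16 arrays and the 39th to 60th percentile of each. Its differences were 0.11 with D3T (95% interval -0.19 to 0.40), -0.10 with OLT and -0.05 with TBD, and the groups overlapped. With array weights Tef passed as higher with D3T (0.26, adjusted p = 0.0212), but that estimate gave a convergence warning. Without D3T replicate 4, and without weights, the D3T difference was -0.03. Values this near the array median tell little about Tef at this signal.

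Bmal1 (Arntl), the activator that drives the loop, was dim too. Probe set AF015953_at lay between the 45th and 50th percentile on D3T, OLT and vehicle arrays and reached the 67th on TBD replicate 4, at 4.35. It differed by 0.09 with D3T, 0.02 with OLT and 0.32 with TBD (95% interval -0.06 to 0.70, adjusted p = 0.315). Probe set AB012600_s_at, which was not tested, averaged 3.10 ± 0.04 with D3T, 3.04 ± 0.16 with OLT and 3.41 ± 0.46 with TBD, against 3.07 ± 0.15 in vehicle (SD, n = 4 each), with 4.00 on TBD replicate 4.

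Between compounds, no member probe set passed the test. Of all tested probe sets, 1.07% differed between D3T and OLT, 0.0564% between TBD and OLT and 0.658% between D3T and TBD (limma). The largest member differences between D3T and TBD were at the 2 Dbp probe sets, which come from the same sequence record and are not independent. Dbp J03179_at was higher with D3T than with TBD by 1.99 (95% interval 0.85 to 3.13, unadjusted p = 0.00214, adjusted p = 0.134) and J03179_g_at by 2.58 (0.43 to 4.73, adjusted p = 0.377). All D3T arrays lay above all TBD arrays for both, which 6.95% of tested probe sets did. Without TBD replicate 4 these differences were 1.47 at J03179_at and 1.17 at J03179_g_at, and neither passed when any single array was left out (adjusted p of 0.131 to 0.329 and of 0.232 to 0.612). With array weights J03179_at passed (1.78, adjusted p = 0.0248).

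For Per2 the compound values lay in the dim range where GCRMA compresses differences, so the intervals between compounds hold for the compressed values and do not bound differences in transcript level. D3T differed from OLT by 0.18 (95% interval -0.10 to 0.45), TBD from OLT by -0.05 (-0.32 to 0.23) and D3T from TBD by 0.22 (-0.05 to 0.50). For Nr1d2 they were wider, with -0.08 (-0.68 to 0.52), -0.56 (-1.15 to 0.04) and 0.48 (-0.12 to 1.07) in the same order. The unsubstituted ring, the methyl and pyrazinyl ring and the tert-butyl ring were not shown to differ for these genes, and for Nr1d2 the intervals leave room for differences of those sizes.

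**Figure D3:**
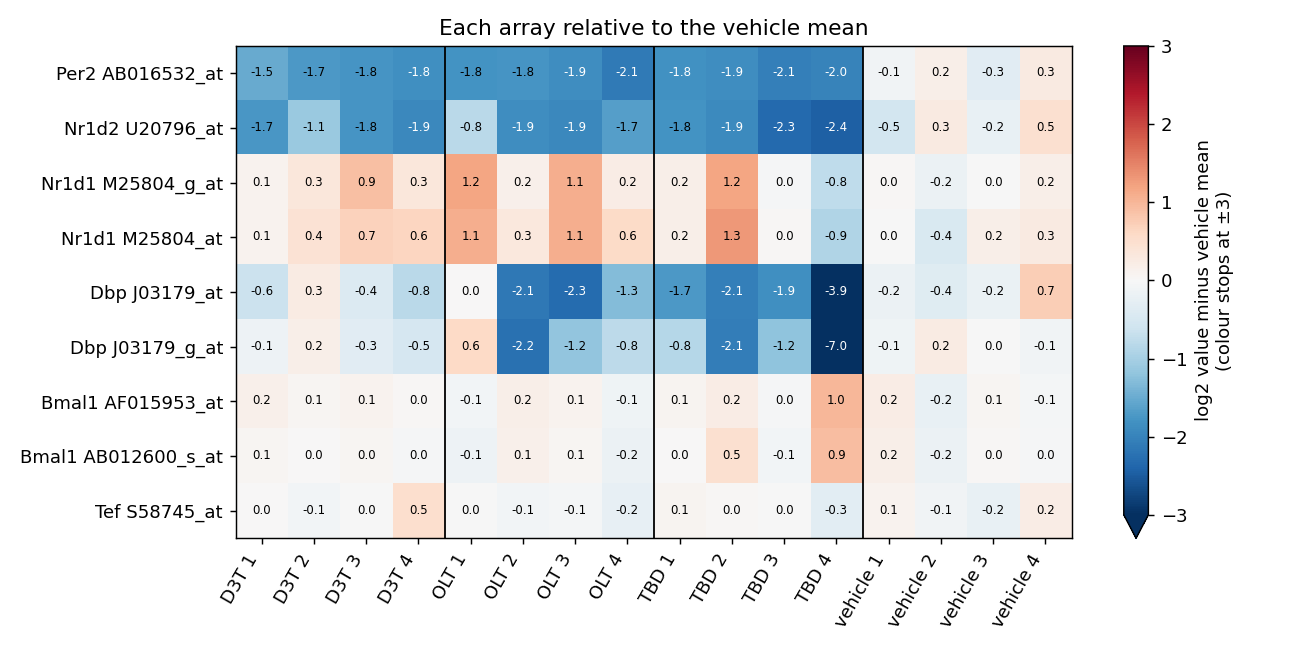
Log2 value of each member probe set on each array minus the vehicle mean of that probe set (printed, and in colour, which stops at ±3), with arrays in columns by group and probe sets in rows. Per2 and Nr1d2 are below 0 on every compound array, and TBD replicate 4 stands apart in most rows.

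TBD replicate 4, singled out after seeing these values, stood apart at most member probe sets. On it, 7 of the 8 tested member probe sets lay outside the range of the other 15 arrays, where 9.07% of all tested probe sets did so. On the other arrays 0 to 3 members lay outside, and the share of all tested probe sets ran from 4.79% to 38.1%. The highest share was that of vehicle replicate 2. Bmal1 was highest on TBD replicate 4, while Dbp, Nr1d1, Nr1d2 and Tef were lowest, and only Per2, at 3.94, lay inside the range. Dbp and Nr1d1 count here with both of their probe sets, which are not independent. Nr1d2 (6.37, against 6.49 or more elsewhere) and the dim Tef (3.06, against 3.13 or more) were outside by little. On the second principal component this array and OLT replicate 1 were the lowest, at -21.8 and -21.7. The hepatocyte markers Alb, Ttr and Apoa1 read 15.34, 13.92 and 13.43 on it, below the other TBD arrays, while Serpina1 read 14.81, above them, and Cps1 12.69, among them. Of the stellate cell markers Col1a1 read 5.38, above the 3.36 to 4.12 of the other TBD arrays, and Col3a1 9.10, above their 8.45 to 9.04. Vim, Dcn and Col1a2 lay among them. Of the Kupffer cell and macrophage markers Cd14 (8.74) and Aif1 (5.13) lay above those arrays, and Clec4f and Csf1r among them. Of the endothelial markers Lyve1 (6.55) lay above, and Kdr and Vwf among them. Des and Pecam1, both dim, were barely above. The part of these in the clock values was not tested.

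Within groups, Dbp and Nr1d2 varied together from rat to rat. Over the deviations of 16 arrays from their group means, Pearson's r was 0.77 (permutation within groups, p = 0.00097, adjusted p = 0.0146 over 15 member pairs) and Spearman's rho 0.79 (p = 0.00169, adjusted p = 0.0254). Without OLT replicate 1 and TBD replicate 4, the arrays farthest from the median of Dbp, r was 0.70 over the same deviations. With the group means taken again without those arrays r was 0.66 and the call was lost (adjusted p = 0.272). It was also lost when vehicle replicate 4, D3T replicate 2, OLT replicate 1, OLT replicate 4 or TBD replicate 4 was left out, with r of 0.64 to 0.84 over all single omissions and adjusted p up to 0.0732. Dbp and Bmal1 had r of -0.70 (p = 0.0295, adjusted p = 0.221) and rho of -0.61, and r of -0.55 without the same arrays. Bmal1 was dim and lay near the array median on all arrays but TBD replicate 4. No pair but Dbp and Nr1d2 passed.

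**Figure D4:**
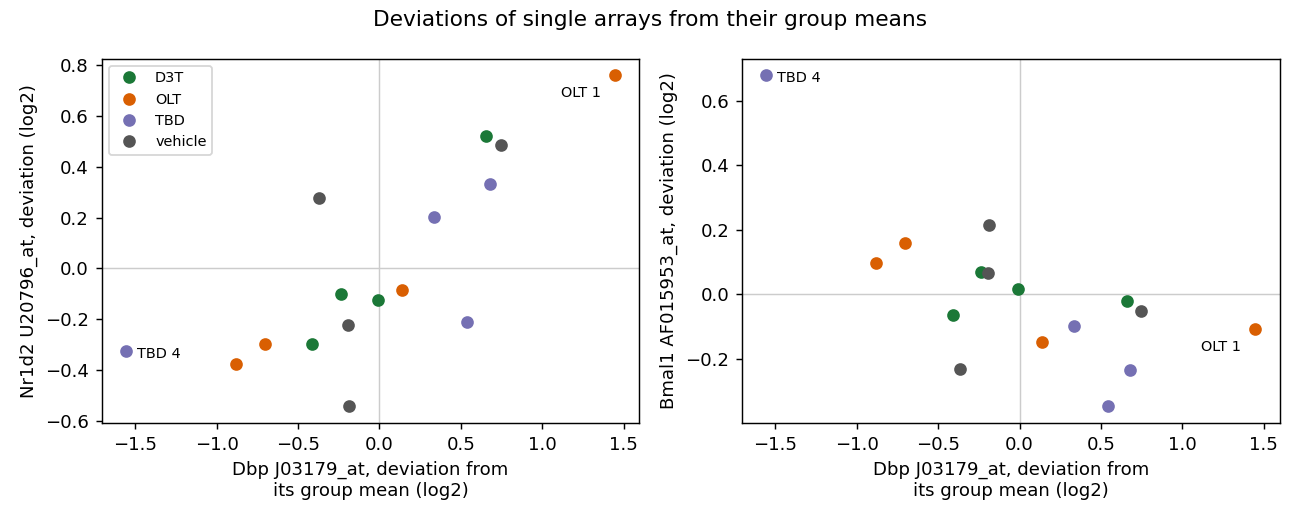
Deviation from the group mean of Nr1d2 and of Bmal1 (vertical axes, log2) against that of Dbp (horizontal axis, log2) on 16 arrays, coloured by group. Nr1d2 goes up with Dbp (r = 0.77) and Bmal1 goes down (r = -0.70, which did not pass), and OLT replicate 1 and TBD replicate 4 lie at the ends.

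The genes most like each member were found by Pearson's r of the same deviations over 16 arrays, as a description. For Dbp these were Slc37a4, the glucose 6-phosphate transporter (0.84), Slc2a2, the liver glucose transporter (0.81), and Atp5f1c, an ATP synthase subunit (0.80). For Nr1d2 they were Nckap1 (0.87), Ube2d2 (0.86) and Slc16a12 (0.83), and for Per2 Ddx39a (0.85), S100a10 (0.85) and Dcn (0.84). Nr1d1 was most like Acaa2 (0.82), Slc37a4 (0.79) and Hsd17b2 (0.76), and Tef like Grk6 (0.85), Cyb5r3 (0.80) and Kiaa0930 (0.79). Bmal1 reached 0.98 with Pelo, Map4k4 and Dnaja4, all of which were high on TBD replicate 4 as Bmal1 was. On the other 15 arrays Bmal1 lay -0.15 to 0.12 from the array median. The lowest values of these partners were at the 52nd to 60th percentile of their arrays. The part of array background in these r values was not tested. On the same array Slc2a2 deviated from its group mean by -1.07 and Hsd17b2 by -0.94, where Dbp and Nr1d1 were lowest. Without it r was 0.66 for Dbp with Slc2a2, 0.62 for Nr1d1 with Hsd17b2 and 0.91 to 0.94 for the Bmal1 partners, and 0.69 to 0.94 for the other pairs named.

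Other clock genes on the array could hardly be read. Of 20 listed, 7 were on the array and 3 were tested (Csnk1d, a casein kinase that acts on PER proteins, Gsk3b and Rorb), and the medians were 0.09 with D3T, -0.04 with OLT and -0.01 with TBD. Of these genes 0 passed with any compound (limma, with 0 also at an unadjusted p under 0.05). Of 16 liver clock output genes 5 were tested, with 1 higher and 1 lower for each compound and median differences of -0.72 with D3T, -0.56 with OLT and -0.46 with TBD. Medians over all genes tested were 0.03, -0.03 and -0.02. Over all genes, 4.61% were higher and 13.1% lower with D3T, 2.61% and 8.92% with OLT, and 2.80% and 10.0% with TBD. Srebf1, a regulator of lipid synthesis, rose by 2.41 ± 0.41 with D3T and by 2.93 ± 0.41 with TBD. Vehicle replicates 2 and 3 read 3.36 and 3.56, near their array medians of 3.27 and 3.46, so the size of the rise depends on the background model. Its OLT difference of 1.37 (adjusted p = 0.0459) no longer passed if vehicle replicate 2 or 3, or OLT replicate 1, 2 or 4, was dropped (adjusted p up to 0.142). Avpr1a, a vasopressin receptor, fell by 1.57 ± 0.30 with D3T. Gys2, the liver glycogen synthase, fell by 1.04 ± 0.24 with OLT and by 1.25 ± 0.24 with TBD. The OLT call was lost in a fit of the 8 arrays compared (adjusted p = 0.0519) and after centring (0.055). With D3T Gys2 differed by -0.72 (adjusted p = 0.0515) and passed in 4 alternatives and without D3T replicate 3, with adjusted p of 0.00295 to 0.0409 there.

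Of 7 listed targets of the PAR bZIP factors, 5 were tested. With D3T 1 was higher and 1 lower, with OLT 2 were lower and with TBD 1, with medians of -0.43, -0.56 and -1.32. Shares of all genes that were lower were 13.1%, 8.92% and 10.0% in the same order, and 4.61% were higher with D3T. Por, the reductase that feeds electrons to cytochromes P450, was lower with each compound, by -1.25 ± 0.28 with D3T, -1.52 ± 0.28 with OLT and -1.65 ± 0.28 with TBD. At its probe set E01524cds_s_at the differences were larger and passed, at -1.96, -2.36 and -2.66 in the same order. At rc_AI137856_s_at Por did not pass with D3T (-1.22, adjusted p = 0.179) but passed with OLT (-2.16) and TBD (-2.15). Alas1, the first enzyme of heme synthesis, fell by 1.62 ± 0.44 with OLT (adjusted p = 0.0282), which failed if vehicle replicate 1, 2 or 4, or OLT replicate 2, 3 or 4, was dropped (adjusted p up to 0.0884). Alb, the serum albumin gene, passed as higher with D3T (0.50 ± 0.11), but it lay at the 99.99th percentile or above on every array, with an SD of 0.006 over the D3T arrays and the highest value of the whole table (15.94). At this ceiling the size of its difference cannot be read, and renewed quantile normalization, which fixes top values by rank, is no check of it. Without TBD replicate 4, Alas1 passed with TBD as well (-1.87, adjusted p = 0.0029, against -1.39 and 0.0537 with all arrays), and so did Alb (0.41, adjusted p = 0.00643, with the same ceiling), so the TBD count became 2 lower and 1 higher. Of 11 listed targets of the REV-ERB receptors 2 were tested, and Pck1, a gluconeogenic enzyme, was lower with TBD (-0.99 ± 0.13). The medians of those 2 genes were -0.04 with D3T, -0.22 with OLT and -0.48 with TBD.

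Glucocorticoids and immediate early signals are known to act on Per genes, so genes that respond to them were listed too. The lists were chosen with earlier results of these data known. The arrays hold no hormone levels, and the part of either signal in the Per2 values was not tested. Of 14 glucocorticoid responsive genes 6 were tested, and 2 were lower with D3T, 3 with OLT and 3 with TBD, with 0 higher and medians of -0.84, -1.22 and -1.09. Among all genes tested, 13.1% were lower with D3T, 8.92% with OLT and 10.0% with TBD. Klf9, a transcription factor gene, differed by -1.47 ± 0.20 with D3T, -1.29 ± 0.20 with OLT and -1.50 ± 0.20 with TBD at D12769_g_at. Its other probe set, D12769_at, passed with TBD alone (-1.13, adjusted p = 0.0426). Igfbp1, a binding protein of insulin-like growth factors, was lower by -1.73 ± 0.41, -1.55 ± 0.41 and -1.68 ± 0.41 in the same order. On TBD replicate 4 Igfbp1 read 11.12, against 9.09 to 9.42 on the other TBD arrays. With OLT it failed if vehicle replicate 2 or 4, or OLT replicate 2 or 3, was dropped (adjusted p up to 0.0851), and with TBD if vehicle replicate 2 was (0.0537). Tat, tyrosine aminotransferase, fell by 1.54 ± 0.39 with OLT, which failed on dropping any of the same 4 arrays as for Igfbp1 (adjusted p up to 0.0607). With TBD its 95% interval was -2.04 to -0.36 (adjusted p = 0.0603), and it passed without TBD replicate 3 or 4. Pck1 with OLT differed by -0.39 (adjusted p = 0.0597) and passed without vehicle replicate 2 or OLT replicate 1.

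Of 13 immediate early genes 7 were tested, and Egr1 alone was lower, with each compound, by -2.80 ± 0.42 with D3T, -2.46 ± 0.42 with OLT and -2.07 ± 0.42 with TBD at AF023087_s_at. Its other probe set, M18416_at, passed with none of them. The list medians were -0.08 with D3T, -0.18 with OLT and -0.07 with TBD. Shares of all genes that were lower were 13.1%, 8.92% and 10.0% in the same order.

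Some markers of other liver cells moved in the same comparisons. Among all genes tested, 13.1% were lower with D3T, 8.92% with OLT and 10.0% with TBD, and 4.61% were higher with D3T. Of 4 Kupffer cell and macrophage markers, 2 were lower with each compound. The log2 of their summed linear values ran from 9.08 to 9.57 with D3T, 8.98 to 9.94 with OLT and 8.94 to 9.66 with TBD. In vehicle it ran from 9.67 to 10.48. Of 4 tested stellate cell markers 3 were lower with D3T, 2 with OLT and 3 with TBD. The same sum over all 6 stellate markers on the array was 8.82 to 9.41, 9.56 to 10.20 and 8.97 to 9.68 in that order. In vehicle it was 9.85 to 10.52. Of 4 endothelial markers 1 was lower with D3T, 0 with OLT and 1 with TBD. Cholangiocytes, red blood cells, and T and B cells had 1 tested marker each, and none of these passed with any compound. Of 5 hepatocyte markers 2 were higher with D3T. The same sum over them was 17.00 to 17.06 with D3T, 16.66 to 16.94 with OLT and 16.66 to 17.04 with TBD. In vehicle it was 16.65 to 16.79. Alb, at the ceiling described above, is part of this sum, so sizes of differences in it are uncertain. The part of all these markers in the member results was not tested. Array medians were 3.27 to 3.58, and within a group Pearson's r between arrays over all probe sets was 0.983 to 0.997.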

How the data were processed

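Liver RNA of 16 rats was measured on 1-colour Affymetrix-type arrays. Per the submitters' processing notes, the authors used GCRMA to make the deposited table of log2 expression values (version not given in the sources used here). That method usually corrects background, normalizes by quantiles and summarises probes. Values ran from -1.21 to 15.9. The table holds no counts, so precision is limited by the number of arrays.

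Genes were named from the platform annotation. Of 8740 probe sets 7006 carried 1 symbol, 308 several and 1426 none, and 6985 matched a RefSeq gene table of GRCr8, used for names. Every probe set of the members is given. The members and gene lists were chosen with earlier results of these data known. Of each list, the genes that passed against vehicle are named, at most 6 per compound, by the probe set with the highest mean.

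Tests were run on probe sets over the 40th percentile of 4 or more arrays, that is 5323 probe sets and 3104 genes. A model of 4 group means used every array (limma 3.58.1, R 4.3.3; residual df 12, prior df 2.42, median SD 0.195), two-sided, with Benjamini-Hochberg adjustment over 5323 probe sets. Values are log2 means ± SD and differences ± SE. Each array is a separate rat, so p-values rest on animal and technical spread together. Member pairs were correlated over deviations from group means, with 100000 permutations within groups. The fit was tested on simulated data. Figures used Python 3.11.15, pandas 2.3.3 and matplotlib 3.10.9. Alternatives were other filters, an intensity trend and robust prior, the 8 arrays compared, a replicate block, renewed quantile normalization, centring, a floor, array weights, a stricter threshold, the mean of probe sets and each array left out. Leaving out OLT replicate 1 and TBD replicate 4 together was chosen after seeing the data, as were leaving out each array in the correlation, TBD replicate 4 in the likeness of genes to members, and running the alternatives on list genes. Scan dates were not used here.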

Additional observations from a re-analysis of the deposited data

Results flagged for a closer look

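In each group of 4 arrays, the highest or lowest value of each of the 9 member probe sets was compared with the rest by Dixon's test, and 3 of 36 groups held an array far from the others. Chance flags about 1 in 20 groups. Dbp J03179_at read 4.60 on TBD replicate 4, the lowest of its group. It read 9.30 on vehicle replicate 4, the highest of the vehicle group. Tef S58745_at read 3.87 on D3T replicate 4, the highest D3T value of a probe set that is dim on every array.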

How the results depend on the processing

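The calls of Per2 and Nr1d2 against vehicle held in every alternative run, and so did that of Dbp J03179_at with TBD when each array was left out (adjusted p 0.0101 to 0.0298). Leaving out each array in turn gave 2 to 2 member calls with D3T, 2 to 3 with OLT, 3 to 4 with TBD and 0 to 0 between compounds. Without OLT replicate 1 and TBD replicate 4 together, 4 member probe sets passed with OLT against vehicle, the Dbp pair added. Dbp J03179_g_at then passed with TBD as well (-1.38, adjusted p = 0.0119). Between D3T and OLT 1 passed, Dbp J03179_at (1.51, adjusted p = 0.0281). Array weights, whose estimate gave a convergence warning, called 1 between D3T and TBD, Dbp J03179_at. Against vehicle they also called Tef higher with D3T (0.26, adjusted p = 0.0212). They added Dbp J03179_at with OLT (-1.71, adjusted p = 0.00407) and Dbp J03179_g_at with TBD (-2.34, adjusted p = 0.0104). Between 0 and 1 member pairs passed the correlation test when an array was left out, and 0 passed without both arrays. The cause of these changes was not tested.

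The titles number the replicates but do not say whether the numbers pair the rats. Of 24 correlations between same-numbered arrays of different groups 8 were over 0.1, with a range of -0.52 to 0.32. Differently numbered arrays were not compared, so these values cannot tell whether the numbers mark a pair or a batch. With the replicate block the member counts were 2, 2 and 3 against vehicle and 0, 0 and 0 between compounds. Alas1 with OLT lost its call under the block (adjusted p = 0.0536).

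Differences that turned sign were all uncalled. Quantile normalization gave Dbp J03179_g_at with D3T 0.029 and Bmal1 AF015953_at for D3T against OLT -0.0046, and centring gave Bmal1 there -0.012 and Pck1 with D3T -0.048. Array weights gave Pck1 with D3T -0.089, Tef 0.12 with OLT and 0.18 with TBD, Nr1d2 0.094 for D3T against OLT, and the Nr1d1 pair -0.11 and -0.073 for D3T against TBD. Without both arrays Tef with TBD was 0.031, Nr1d2 for D3T against OLT 0.17, Per2 for TBD against OLT 0.0067, the Dbp pair 0.043 and 0.025 there, and the Nr1d1 pair -0.031 and -0.022 for D3T against TBD. The mean of probe sets gave Bmal1 with OLT -0.0069.

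With each array left out, Tef ran from -0.028 to 0.18 with D3T, from -0.13 to 0.031 with TBD and from -0.0041 to 0.13 for TBD against OLT. Pck1 with D3T ran from -0.063 to 0.064 and Bmal1 with OLT from -0.059 to 0.091. Nr1d1 with TBD ran from -0.23 to 0.50 at M25804_at and from -0.21 to 0.44 at M25804_g_at, and for D3T against TBD from -0.031 to 0.70 and from -0.022 to 0.63. Nr1d2 for D3T against OLT ran from -0.25 to 0.17. Bmal1 and Tef lie near the array median, where signal over background limits what can be read.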

Other observations

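Further clock genes on the array lay at the dim end on all 16 arrays and were not tested. Hlf, a PAR bZIP factor like Dbp and Tef, read 2.83 to 3.15, and Bhlhe40, a repressor of the clock also known as DEC1, read 2.84 to 3.22. Timeless read 2.56 to 2.93 and Bhlhe41 read 2.16 to 2.52.

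Some of the genes that varied with the members from rat to rat also differed between groups. Slc2a2, the liver glucose transporter that was among the genes most like Dbp, averaged 10.61 ± 0.19 with D3T, 10.51 ± 0.32 with OLT and 10.18 ± 0.75 with TBD, against 11.70 ± 0.17 in vehicle (SD, n = 4 each). On TBD replicate 4 it deviated by -1.07 from the TBD mean, and without that array its r with Dbp was 0.66. It fell by 1.09 ± 0.28 with D3T (SE, limma adjusted p = 0.0139), by 1.19 ± 0.28 with OLT (0.0129) and by 1.52 ± 0.28 with TBD (0.00246) on the log2 scale. Slc37a4, which varied with both Dbp and Nr1d1, differed by 0.03 with D3T (adjusted p = 0.902) and by -0.34 with OLT (0.0889), and fell by 0.48 ± 0.12 with TBD (0.0157). Hsd17b2 was lower with TBD (-2.07, limma adjusted p = 0.000746), and Slc16a12 with D3T (-0.73, 0.0301) and TBD (-0.965, 0.00873). Dcn was lower with OLT (-0.55, 0.0383) and TBD (-0.51, 0.0474) at rc_AI639233_s_at. Acaa2 was higher with D3T (0.54, 0.0114), and Kiaa0930 with D3T (0.56, 0.00683) and OLT (0.51, 0.0161). The other genes named as most like a member passed with none.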
